A study of Mus musculus with 12 samples.

Results

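The clustered histone genes are the genes whose symbols begin with Hist1h, Hist2h, Hist3h or Hist4h. They were taken as every such row of the deposited count table with at least 1 count in any library, which gave 65 genes out of 48663 gene rows. They comprised 5 linker histone H1 genes, 19 H2A genes, 17 H2B genes, 11 H3 genes and 13 H4 genes. A further 5 rows of the same name (Hist1h1t, Hist1h2aa, Hist1h2ba, Hist1h2bq and Hist2h3c1) had no count in any of the 12 libraries. Of the 65 genes, 26 had enough counts to be tested in at least 1 of the 4 comparisons between groups, and 16 of these in all 4.

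The RNA sequencing libraries came from 4 groups of sorted C57BL/6 mouse T cells, 3 per group, with 40000 cells sorted for each. KO CD8αα splenocytes carried Cd4 Cre and floxed Lrf alleles (Cd4 Cre+ Lrf fl/fl) and were gated as CD45+ TCRβ+ cells that carried CD8α and lacked both CD4 and CD8β. Control CD8αα IEL passed the same gate and lacked Cre (Cd4 Cre- Lrf fl/fl); IEL are the intraepithelial lymphocytes of the gut lining. KO IELp (Cd4 Cre+ Lrf fl/fl) and control IELp (Cd4 Cre- Lrf fl/fl) were thymic IEL precursors, gated as TCRβ+ CD4- CD8α- cells with high CD5 and PD-1, with CD122 and H-2Kb and without CD44. All 4 groups carried the floxed alleles. LRF, a zinc finger transcription factor, is the product of Zbtb7a, and the Cd4 promoter that drives Cre becomes active during T cell development in the thymus. For the CD8αα cells genotype and tissue changed together, and the labels state no age, time or pooling and do not say whether replicates were separate animals, so p-values here measure only the spread between these samples.

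Histones are the proteins on which DNA is wound: 2 copies each of H2A, H2B, H3 and H4 form the nucleosome core, and H1 binds the linker DNA between cores. Most genes of the histone clusters are transcribed in S phase, when new DNA has to be packaged, and their messages end in a conserved stem-loop instead of a poly(A) tail. Some of them can also be polyadenylated, through sites further downstream, in cells that have stopped dividing or are differentiating. The SMARTer Ultra Low Input reagent used for these libraries starts cDNA synthesis from poly(A), so messages that end at the stem-loop are expected to be recovered poorly, and the levels below cannot be read as the total histone message of a cell.

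Each library held between 13432598 and 19947734 counts assigned to genes. The targeted gene Zbtb7a, measured as a check of the labels, averaged 45.5 ± 4.66 CPM in KO IELp and 75.4 ± 6.27 CPM in control IELp (SD, n = 3 each; CPM are counts scaled to a library's total gene counts), and 61.3 ± 2.13 CPM in KO CD8αα splenocytes against 111 ± 8.91 CPM in control CD8αα IEL. The 6 T cell markers summed to between 3849 and 7934 CPM in every library. The 7 gut epithelium markers summed to 502 to 644 CPM in control CD8αα IEL and to 9.60 to 14.6 CPM in KO CD8αα splenocytes. They summed to 57.2 to 59.7 CPM in KO IELp and 60.3 to 69.5 CPM in control IELp. Cdh1 and Epcam held most of the sum in IEL, averaging 397 and 146 CPM. Epcam held most of it in KO IELp and control IELp, averaging 56.0 and 62.0 CPM. The part of these markers in the results below was not tested. The 4 B cell markers used (Ms4a1, Cd79a, Cd79b and Pax5) summed to 79.1 to 94.4 CPM in KO CD8αα splenocytes, with none of the 4 at 0, against 34.5 to 61.3 CPM in control CD8αα IEL, where Ms4a1 and Pax5 were at 0; their part was not tested either.

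By the GENCODE annotation of the mm10 build, 31 of the 70 clustered histone rows lay in a cluster on chromosome 13 from 23531050 to 23934851 and 24 lay in a neighbouring cluster from 21715763 to 22043676. Another 10 lay on chromosome 3 from 96219865 to 96270132 and 3 on chromosome 11 from 58948920 to 58956830. Hist4h4 stood alone on chromosome 6 from 136801553 to 136804415, and the pseudogene Hist1h2al alone on chromosome 13 from 51202727 to 51203065.

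Clustered histone RNA was scarce in these libraries and was spread very unevenly over the genes. The 65 genes together had 12108 counts over the 12 libraries, between 537 and 1368 per library. The 2 most abundant, Hist1h1c and Hist2h2be, held 27.8% of them, the top 5 held 49.2% and the top 10 held 69.5%, while 10 genes had fewer than 10 counts in all. Per kilobase of exon, the highest level belonged to Hist1h2ae at 6.04 CPM per kb averaged over all libraries, followed by Hist1h1c at 5.60, Hist1h4i at 4.61, Hist1h4d at 3.26 and Hist2h2be at 3.16 CPM per kb. The leading gene differed between the groups. Hist1h4i and Hist2h2be were highest and close to each other in KO CD8αα splenocytes, at 3.75 and 3.68 CPM per kb, against 2.28 for Hist1h2ae. Hist1h1c led in control CD8αα IEL, at 13.8 CPM per kb against 3.77 for Hist1h1e and 1.60 for Hist1h2ae. Hist1h2ae led in KO IELp at 7.21 CPM per kb and in control IELp at 13.1 CPM per kb.

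Most counts came from genes whose annotated transcripts run over 100 bases past the stem-loop, or past the stop codon where no stem-loop was found. The letters of the stem-loop core of histone messages, 16 bases long, were searched on the coding strand in the first 100 bases after the stop codon. They were found in 42 of the 48 genes with at least 40 annotated bases there, and in 3 of 20775 other coding genes (0.0144%). The 29 bases around the stem-loop are given here for the genes on which the results turn, with the stem-loop in capitals, because this is the end that a message without poly(A) would have.
Hist1h1c: caaaaGGCTCTTTTCAGAGCCaccactcc
Hist1h1e: ccaaaGGCTCTTTTCAGAGCCacccacaa
Hist1h2ae: acaaaGGCTCTTTTCAGAGCCattcactt
Hist1h2bg: ccaaaGGCTCTTTTCAGAGCCacccatac
Hist1h2ag: acaaaGGCTCTTTTCAGAGCCacctaacc
Hist1h4d: ccaaaGGCCCTTTTCAGGGCCactacctt
Hist1h4i: ttaaaGGCCCTTTTTAGGGCCaccacaaa
The 16 letters in capitals are the same in the 5 H1, H2A and H2B genes shown and are others in the 2 H4 genes. The annotated transcript goes on for 840 bases after the stem-loop in Hist1h1c, 1153 in Hist1h1e, 770 in Hist1h4d, 330 in Hist1h4i, 155 in Hist1h2bg and 151 in Hist1h2ae, but for 23 bases in Hist1h2ag. The annotated transcripts of Hist2h2be and Hist1h2bc hold 2192 and 742 bases after the stop codon, without the letters in the part searched.

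Grouped in this way, 20 genes with over 100 annotated bases beyond the stem-loop held 62.5% of the clustered histone counts, and 15 of them could be tested in the 4 comparisons. The 22 genes whose annotation ends within 100 bases of it held 11.2%, with 7 tested. The 4 genes without the stem-loop and with over 100 bases after the stop codon held 18.4%, with 2 tested, and the remaining 19 held 7.93%, with 2 tested. Genes with longer annotated ends also have more sequence of their own to count. Per kilobase of exon, the medians of these 4 types, in the order given, were 0.706, 0.534, 1.38 and 0.283 CPM per kb.

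**Figure D1:**
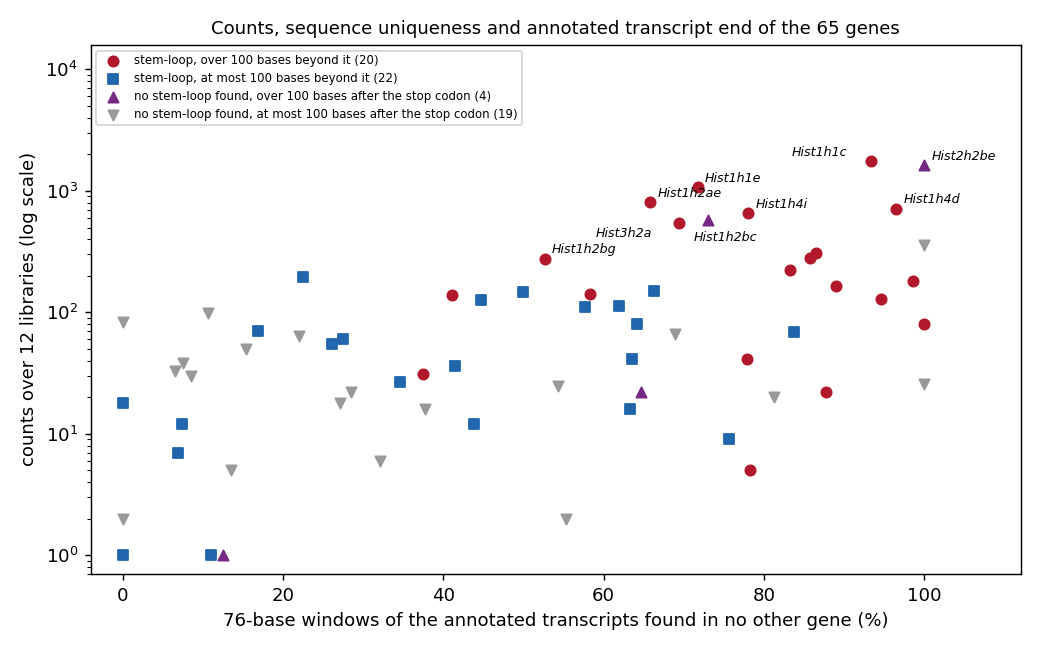
Counts of each of the 65 clustered histone genes over 12 libraries (log axis) against the share of its 76-base transcript windows that occur in no other annotated gene, with marker and colour for the annotated transcript end. The genes with over 100 bases beyond the stem-loop (red circles) lie mostly to the upper right, with Hist1h1c and Hist2h2be at the top, and genes with few windows of their own have low counts.

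Near-identical copies limit what can be counted for many of these genes. For the median gene, 55.3% of the windows of 76 bases (the read length) in its annotated transcripts occurred in no other gene. Hist2h2aa1, Hist2h2aa2, Hist2h2bb and Hist2h3b had no such window, 29 genes had fewer than 50%, and Hist1h1a, Hist1h1b, Hist2h2be and Hist2h4 had only such windows. Among the genes named most below the share was 93.4% for Hist1h1c, 96.5% for Hist1h4d, 78.1% for Hist1h4i, 65.8% for Hist1h2ae, 52.7% for Hist1h2bg and 22.4% for Hist1h2ag. Reads aligned to several places made up 13.1% to 18.8% of the reads in the table and were not counted for any gene. The strand setting of the count is not given in the sources used here. Hist1h2ae overlaps the exons of Gm44394, Hist1h1e overlaps those of Hist1h2be and Gm11398, and Hist3h2a those of Trim17 and Gm44313. Hist1h2ag overlaps Gm44486, Hist1h2ab Gm44484, Hist1h2ac Gm24991 and Gm44350, Hist1h2ai Gm44367 and Hist2h2ac Gm44492. Further clustered histone genes overlap other genes, and the counts of all of these are uncertain to that extent.

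Summed over the 65 genes, clustered histone RNA was lower in KO IELp than in control IELp, lower in control CD8αα IEL than in control IELp, and lowest in KO CD8αα splenocytes. The sum was 71.8, 72.5 and 62.5 CPM in the KO IELp libraries and 76.5, 80.4 and 92.4 CPM in the control IELp libraries, so the groups did not overlap. It was 38.65, 43.79 and 39.98 CPM in KO CD8αα splenocytes and 51.4, 54.9 and 57.6 CPM in control CD8αα IEL, again without overlap. No p is given for these sums, since the genes were chosen with earlier results of these data known. In bulk samples, fewer cells in S phase and less histone RNA per cell cannot be told apart.

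The 5 classes did not follow 1 pattern. H2A genes summed to 5.40 ± 0.279 CPM in control CD8αα IEL and 21.6 ± 3.06 CPM in control IELp (SD, n = 3 each), with H2B at 9.98 ± 0.963 and 22.8 ± 1.18 CPM, H3 at 2.32 ± 0.352 and 6.22 ± 0.707 CPM, and H4 at 6.73 ± 0.805 and 16.9 ± 2.88 CPM. H1 genes went the other way, averaging 30.2 CPM in control CD8αα IEL and 15.7 CPM in control IELp, without overlap between the libraries, but Hist1h1c alone set that direction. The other 4 H1 genes, summed after the values were seen, had 8.73 ± 1.80 CPM in control CD8αα IEL and 11.2 ± 1.84 CPM in control IELp, with overlapping libraries. In KO IELp the H2A and H4 sums were 14.2 ± 1.05 and 11.5 ± 0.848 CPM, below every control IELp library, while the H2B sum of 24.2 ± 1.91 CPM and the H1 sum of 14.0 ± 1.97 CPM overlapped with the control. KO CD8αα splenocytes had 8.61 ± 0.615 CPM of H1, 7.59 ± 0.341 CPM of H2A, 14.4 ± 2.71 CPM of H2B, 2.70 ± 0.520 CPM of H3 and 7.47 ± 1.45 CPM of H4. Without Hist1h1c and Hist2h2be, which were left out after their values were seen, the sum of the other 63 genes was 27.8 ± 2.63 CPM in KO CD8αα splenocytes and 30.0 ± 2.40 CPM in control CD8αα IEL, with overlapping libraries (28.3 ± 2.76 and 33.4 ± 2.56 CPM after TMM scaling, without overlap), and 51.4 ± 3.92 CPM in KO IELp against 70.3 ± 7.57 CPM in control IELp.

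**Figure D2:**
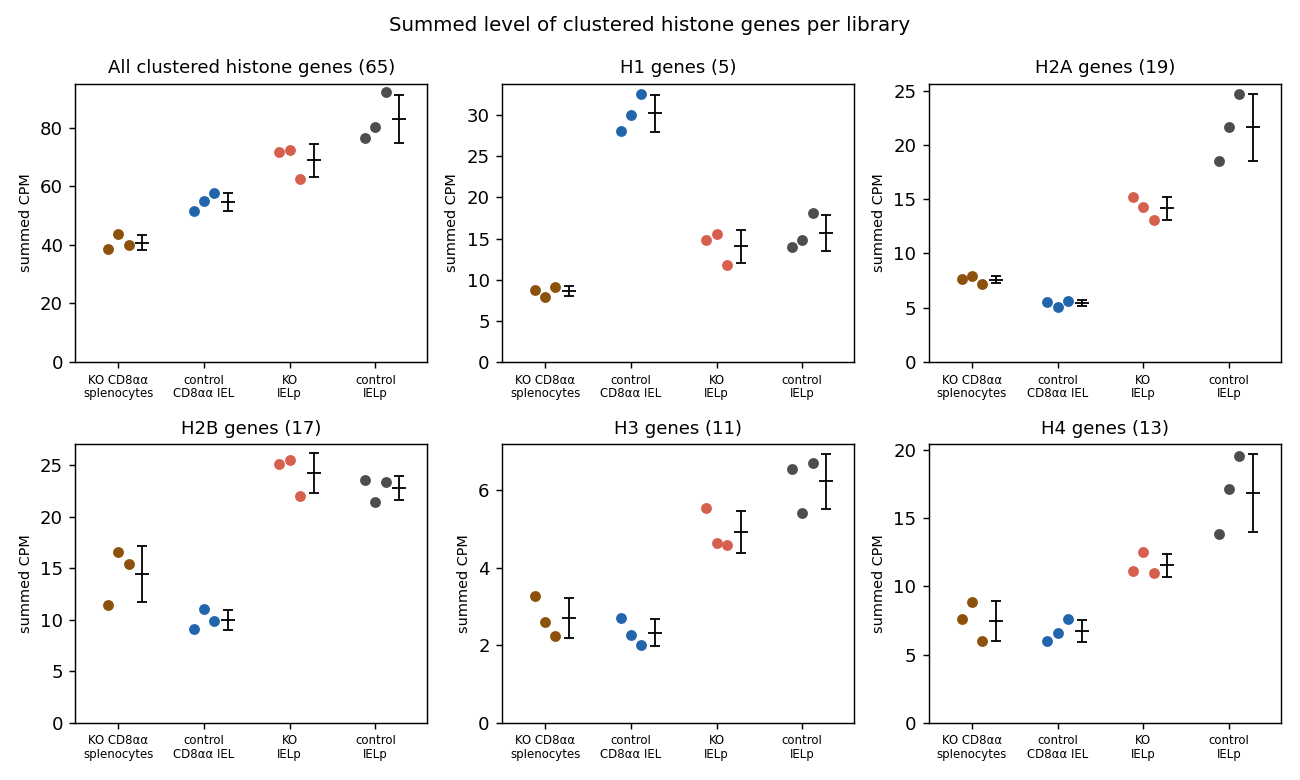
Summed CPM of all 65 clustered histone genes and of each class in each of the 12 libraries (points), with the group mean and SD beside them (bars, n = 3). H2A, H2B, H3 and H4 sums were lower in control CD8αα IEL than in control IELp, whereas the H1 sum was higher, at 30.2 against 15.7 CPM, through Hist1h1c.

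In the thymic precursors, the comparison in which the labels differ in genotype alone, the share of clustered histone genes called lower in KO cells was near that of all genes. Of 25 tested genes, 2 were lower and 0 higher in KO IELp by edgeR's quasi-likelihood test at an adjusted p of 0.05, against 6.58% lower and 6.48% higher among all tested genes (13.1% in either direction). The libraries of the groups did not overlap in 9 of the 25, against 29.7% of all tested genes. Before adjustment 8 were lower and 1 was higher at the same level, and DESeq2 called 0 higher. The tested clustered histone genes had a median log2 fold change of -0.24, and 16 of 25 were negative, against a median of -0.01 over all tested genes. The filter on counts kept Hist1h2ai, Hist1h2bm and Hist1h3a through the control IELp libraries alone, where they were high. Each is among the 16, the 8 and the 9, so the filter tilts the median and these counts to the lower side.

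Hist1h2ae, which encodes a core histone H2A, had 5.55, 6.26 and 3.43 CPM in KO IELp, against 7.85, 9.00 and 10.8 CPM in control IELp. All 3 KO libraries lay below all control libraries. Its log2 fold change was -0.84 (SE 0.22), with an adjusted p of 0.0219 by edgeR. The adjusted p was 0.0642, 0.0644 and 0.0929 without control IELp replicate 2, control IELp replicate 3 or KO IELp replicate 3. Hist1h4d, an H4 gene, had 4.42, 4.40 and 3.64 CPM in KO IELp, against 5.66, 6.70 and 8.25 CPM in control IELp, again without overlap. It fell by 0.70 on the log2 scale (SE 0.21, edgeR adjusted p = 0.0371). That call rests on each of 5 libraries: the adjusted p was 0.0745 without KO IELp replicate 1, 0.0799 without replicate 2, 0.139 without replicate 3, 0.0873 without control IELp replicate 2 and 0.122 without control IELp replicate 3, and it was 0.0504 with DESeq2.

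The other tested genes of the precursors did not pass. The lowest fold changes were those of Hist1h2bm at -1.43 (SE 0.50, edgeR adjusted p = 0.0759), Hist1h3a at -1.41 (SE 0.51, adjusted p = 0.0850), Hist1h2ab at -1.16 (SE 0.45, adjusted p = 0.110) and Hist1h2bj at -1.15 (SE 0.37, adjusted p = 0.0553), none above 2.12 CPM in any library. Of these, Hist1h2bm and Hist1h3a passed the filter on counts through the control IELp libraries alone, where they were high. Hist2h2be, the most abundant H2B gene, had 11.3, 14.1 and 10.4 CPM in KO IELp and 9.08, 6.53 and 9.43 CPM in control IELp. All KO values lay above all control values, and the log2 fold change was 0.54 (SE 0.18) with an adjusted p of 0.0619, which became 0.0451 without control IELp replicate 3. Hist1h1c, the most abundant H1 gene, had 5.59 ± 0.951 CPM in KO IELp and 4.48 ± 0.703 CPM in control IELp and did not pass (edgeR adjusted p = 0.351), nor did Hist1h1e (adjusted p = 0.538).

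Among genes that work beside the clustered histones, most mitosis genes were lower in KO IELp, and most genes of the other lists were not called. Of all tested genes, 6.58% were called lower and 6.48% higher. The 1 called of 16 chaperones and importins and the 1 of 14 processing and decay genes were near these shares. Of 20 tested mitosis genes, 17 fell and 0 rose, among them Ube2c, a ubiquitin-conjugating enzyme of the anaphase complex, by 0.88 on the log2 scale, and the proliferation marker Mki67 by 0.65. Of 25 DNA replication genes, 4 fell and 0 rose: Tyms by 0.77, Rrm2 by 0.59, Cdc6 by 0.38 and Rrm1 by 0.28. Of 13 genes of the G1 to S transition 3 fell (Rbl1, E2f2 and E2f8), and of 16 histone chaperones and importins 1 fell, Chaf1b, a subunit of the chromatin assembly factor. Of 14 genes for histone message processing and decay, 1 rose, the helicase gene Upf1, by 0.29. Slbp, whose protein binds the stem-loop, was not among them, at 278 ± 3.13 CPM in KO IELp and 286 ± 11.9 CPM in control IELp (edgeR adjusted p = 0.849).

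Replacement histone genes, which lie outside the clusters, fell in 4 of 10 tested cases, against 6.58% called lower among all tested genes. The linker histone gene H1f0 had 1.61 ± 0.359 CPM in KO IELp and 8.61 ± 1.01 CPM in control IELp, a log2 fold change of -2.40 (SE 0.23, edgeR adjusted p = 6.20e-06). H2afx, H2afv and H2afz fell by 0.33, 0.31 and 0.25. The 20 mitosis genes summed to 1043 ± 24.6 CPM in KO IELp against 1417 ± 30.0 CPM in control IELp, and the part of cell division in the clustered histone values was not tested.

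**Figure D3:**
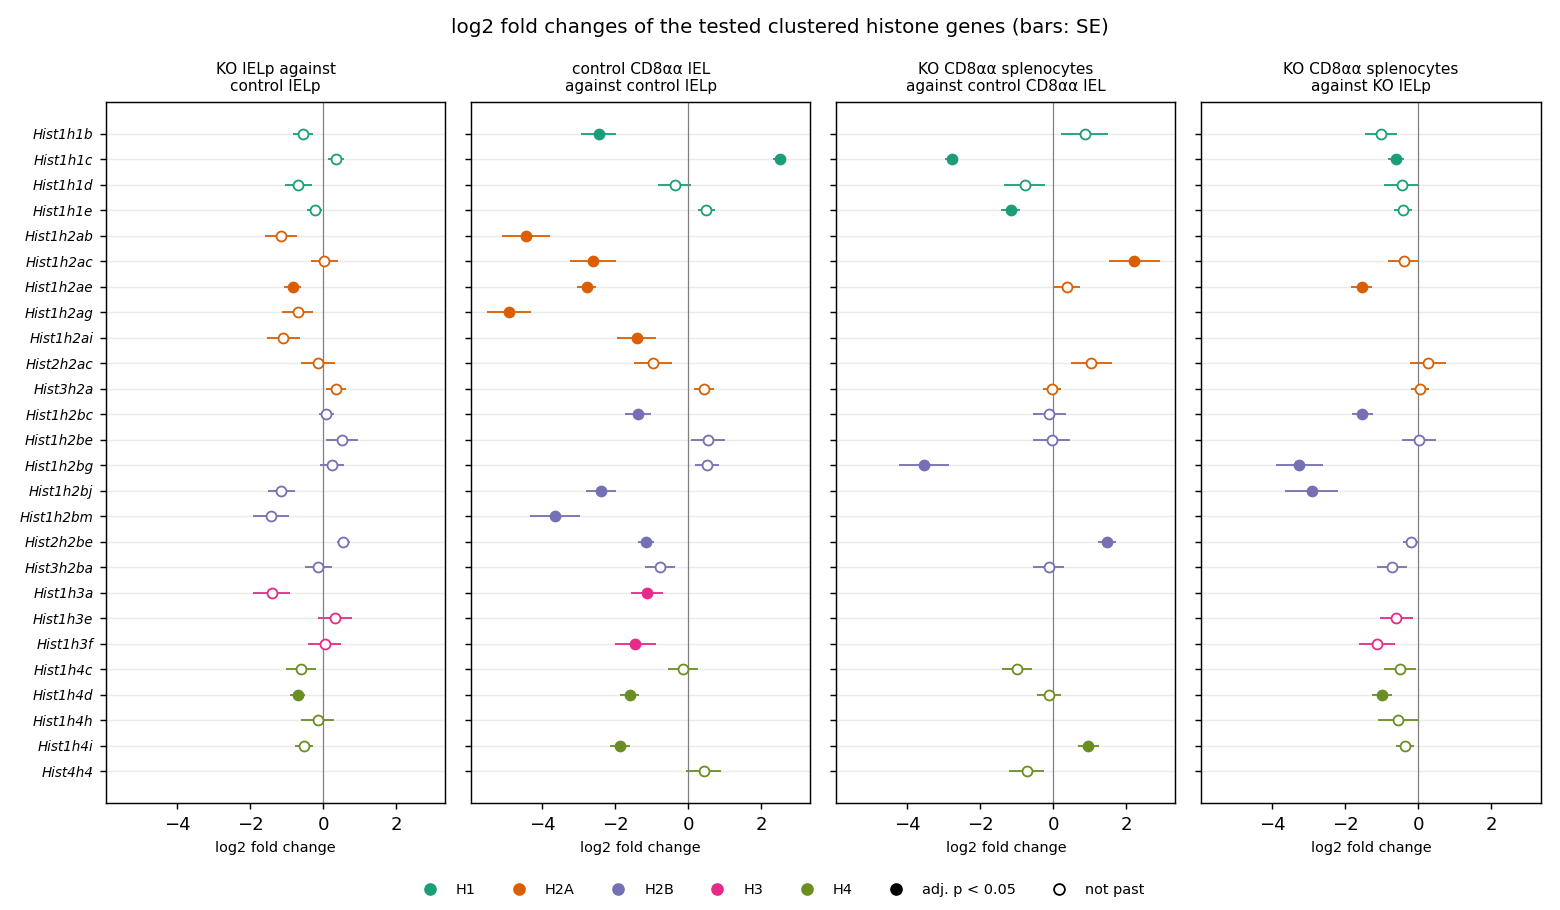
log2 fold change (points) and SE (bars) of the 26 clustered histone genes tested in at least 1 comparison, coloured by class, filled where the adjusted p was under 0.05. In control CD8αα IEL against control IELp 14 genes were lower and Hist1h1c alone was higher, while KO CD8αα splenocytes against control CD8αα IEL had 3 genes in each direction.

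Mature control CD8αα IEL had far less core histone RNA than control IELp, and more of 1 linker histone. Of 24 tested genes, 14 were lower and 1 was higher, against 32.9% lower and 31.9% higher among all tested genes (64.8% in either direction). The groups did not overlap in 18 of the 24, against 70.9% of all tested genes, and the median log2 fold change was -1.26, against -0.01 over all tested genes. The filter on counts kept several of these genes through the precursor libraries alone, so the genes that were tested are not a sample of all 65. The 14 comprised 5 H2A, 4 H2B, 2 H3, 2 H4 and 1 H1 gene. All 25 DNA replication genes and all 20 mitosis genes fell in the same comparison, along with 11 of 14 genes of the G1 to S transition and 11 of 16 chaperones and importins. Markers of double-positive thymocytes, an earlier stage of T cell development in the thymus, fell in 6 of 6 cases. They summed to 0.0643 to 0.978 CPM in control CD8αα IEL, with Rag1, Rag2, Dntt and Arpp21 at 0, and to 28.7 to 40.1 CPM in control IELp, with none of the 6 at 0, and their part in the histone values was not tested.

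Hist1h2ag, Hist1h2ab and Hist1h2bm were nearly uncounted in IEL, and they passed the filter on counts through the precursor libraries, where they were high. Hist1h2ag had 1, 0 and 2 counts in the control CD8αα IEL libraries and 27, 44 and 36 counts in the control IELp libraries, for a log2 fold change of -4.92 (SE 0.61, edgeR adjusted p = 3.47e-05). Hist1h2ab had 1, 0 and 2 counts in IEL and 17, 35 and 25 counts in control IELp, and fell by 4.44 (SE 0.65, adjusted p = 1.36e-04). Hist1h2bm had 2, 0 and 1 counts in IEL and 17, 14 and 13 counts in control IELp, and fell by 3.65 (SE 0.69, adjusted p = 7.65e-04). With so few counts in IEL, the sizes of these folds are loosely set, and the lack of overlap between the groups follows largely from the filter. Hist1h2ah, Hist1h3b and Hist1h3g, too low to be tested, had no count in the 3 IEL libraries and 19, 20 and 15 counts in control IELp, so they were at least 7.03-fold, 7.40-fold and 5.55-fold lower, taking 3 counts summed over the 3 IEL libraries as the floor, which covers counting error only.

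The more abundant core histone genes fell as well. Hist1h2ae had 0.860, 1.22 and 1.30 CPM in control CD8αα IEL, against 7.85, 9.00 and 10.8 CPM in control IELp, and fell by 2.78 on the log2 scale (SE 0.26, edgeR adjusted p = 3.95e-06). Hist1h4i had 1.23, 1.35 and 1.30 CPM in IEL and 4.16, 6.41 and 6.19 CPM in control IELp, and fell by 1.87 (SE 0.28, adjusted p = 1.55e-04). Hist1h4d fell by 1.61 (SE 0.26) and Hist2h2be by 1.16 (SE 0.22). The H3 genes had the weakest calls. Hist1h3f fell by 1.45 (SE 0.56, edgeR adjusted p = 0.0401) and Hist1h3a by 1.13 (SE 0.44, adjusted p = 0.0409), and Hist1h2ai by 1.42 (SE 0.52, adjusted p = 0.0342). All 3 passed the filter on counts through the control IELp libraries alone, where they were high. Each of these 3 lost its call with DESeq2 and without any of 4 or more of the 6 libraries, with adjusted p up to 0.141 for Hist1h3a, 0.138 for Hist1h3f and 0.133 for Hist1h2ai when 1 library was left out.

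Linker histones split. Hist1h1c had 20.4, 19.2 and 24.9 CPM in control CD8αα IEL, against 4.64, 3.70 and 5.08 CPM in control IELp. Every IEL library exceeded every precursor library by a wide margin, and the log2 fold change was 2.50 (SE 0.18, edgeR adjusted p = 3.91e-07), a 5.66-fold difference. Hist1h1b, a linker histone gene with no annotated bases after its stop codon, had 0.799, 0.129 and 0.652 CPM in IEL and 2.73, 3.35 and 4.35 CPM in control IELp, and fell by 2.46 (SE 0.48, adjusted p = 9.91e-04). Hist1h1e, at 7.27 ± 1.85 CPM in IEL and 6.07 ± 1.13 CPM in control IELp, and Hist1h1d did not pass (adjusted p = 0.0905 and 0.491). Outside the clusters H1f0 rose by 0.63 (SE 0.16, adjusted p = 0.00444). The gut epithelium markers summed to 502 to 644 CPM in the same IEL libraries, and their part in the level of Hist1h1c was not tested.

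**Figure D4:**
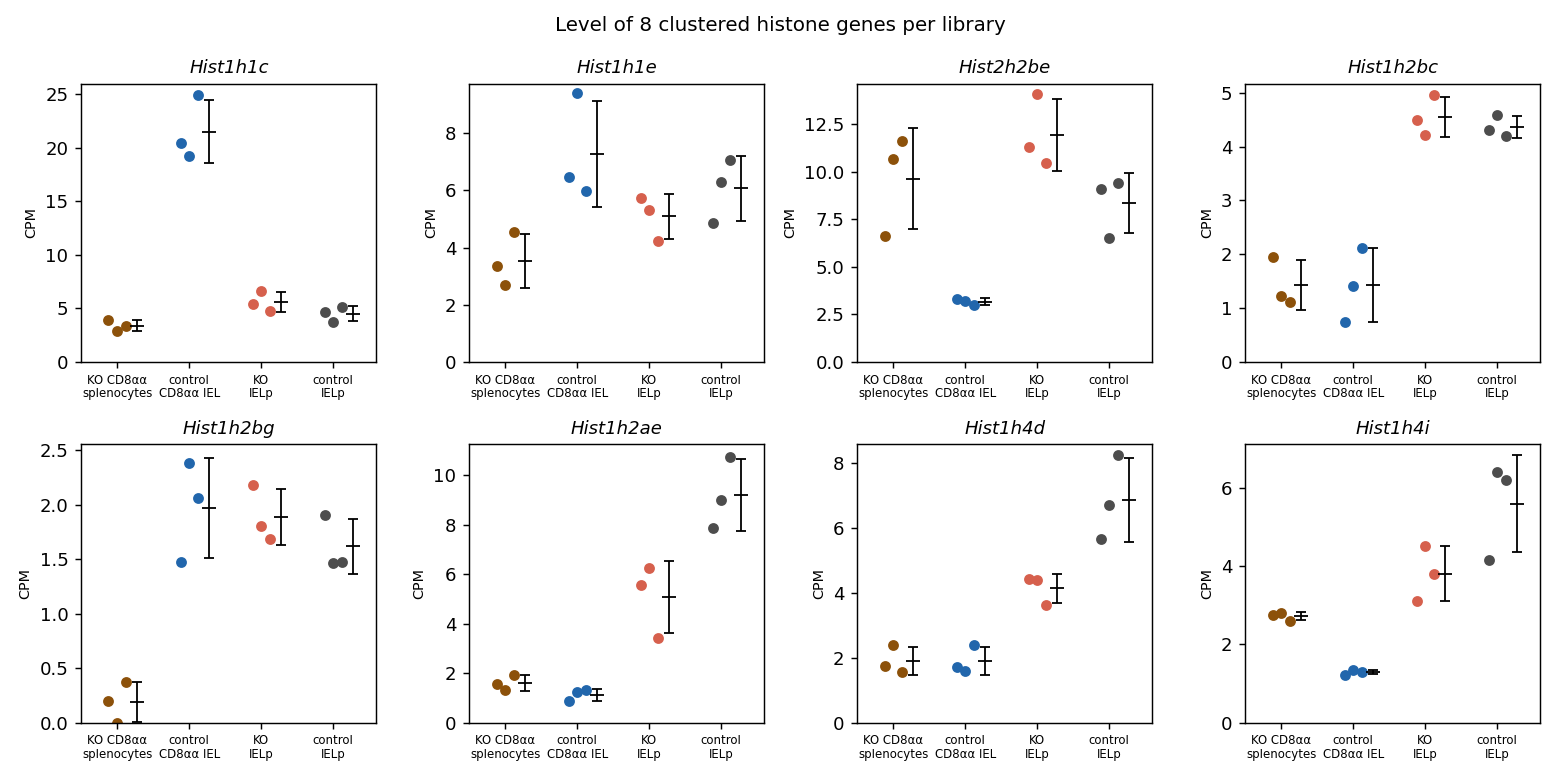
CPM of 8 clustered histone genes in each of the 12 libraries (points), with group mean and SD (bars, n = 3). Hist1h1c stood at 19.2 to 24.9 CPM in control CD8αα IEL and at most at 6.62 CPM in the other groups, Hist2h2be was lowest in control CD8αα IEL, and Hist1h2bg was near 0 in KO CD8αα splenocytes.

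KO CD8αα splenocytes and control CD8αα IEL, which passed the same gate but differ in both genotype and tissue, differed in single histone genes, in both directions. Of 17 tested genes, 3 were lower and 3 were higher, against 29.2% lower and 29.1% higher among all tested genes (58.2% in either direction). The groups did not overlap in 8 of the 17, against 66.2% of all tested genes, and the median log2 fold change was -0.11, against 0.00 over all tested genes. No H3 gene had enough counts to be tested. In the same comparison 19 of 25 DNA replication genes and 13 of 20 mitosis genes rose, and 1 of each fell.

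Both abundant H1 genes were lower in the splenocytes. Hist1h1c had 3.91, 2.86 and 3.35 CPM in KO CD8αα splenocytes, against 20.4, 19.2 and 24.9 CPM in control CD8αα IEL, and fell by 2.79 on the log2 scale (SE 0.18, edgeR adjusted p = 5.60e-07). Hist1h1e had 3.36, 2.70 and 4.54 CPM in splenocytes and 6.45, 9.39 and 5.98 CPM in IEL, and fell by 1.17 (SE 0.27, adjusted p = 0.00364). Hist1h2bg, an H2B gene, passed the filter on counts through the IEL libraries, where it was high. It had 4, 0 and 5 counts in the splenocyte libraries and 24, 37 and 38 counts in the IEL libraries. It fell by 3.55 (SE 0.68, edgeR adjusted p = 0.00133), and the lack of overlap between the groups follows largely from the filter on counts. H1f0 was lower too, at 0.595 ± 0.354 CPM in splenocytes and 11.4 ± 0.518 CPM in IEL.

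Hist2h2be, Hist1h4i and Hist1h2ac went up. Hist2h2be had 6.62, 10.7 and 11.6 CPM in KO CD8αα splenocytes, against 3.32, 3.22 and 2.99 CPM in control CD8αα IEL, a log2 fold change of 1.47 (SE 0.24, edgeR adjusted p = 4.88e-04). Hist1h4i had 2.76, 2.81 and 2.61 CPM in splenocytes and 1.23, 1.35 and 1.30 CPM in IEL, and rose by 0.95 (SE 0.29, adjusted p = 0.0168; 0.0621 without IEL replicate 1). Hist1h2ac, an H2A gene, passed the filter on counts through the splenocyte libraries, where it was high. It had 13, 19 and 11 counts in splenocytes and 3, 0 and 5 counts in IEL, and rose by 2.22 (SE 0.70, adjusted p = 0.0205). Its adjusted p lay between 0.0529 and 0.0700 without IEL replicate 1 or 2 or splenocyte replicate 2 or 3, and was 0.0543 with the replicate number as a block. Hist1h2ae, at 1.60 ± 0.309 CPM in splenocytes and 1.13 ± 0.236 CPM in IEL, and Hist1h4d, at 1.90 ± 0.429 CPM in splenocytes and 1.91 ± 0.423 CPM in IEL, did not pass (adjusted p = 0.408 and 0.772). The B cell markers summed to 79.1 to 94.4 CPM in splenocytes and 34.5 to 61.3 CPM in IEL. Of 5 myeloid markers, 4 were called higher in splenocytes and 1 lower. The part of the B cell and myeloid markers was not tested.

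KO CD8αα splenocytes had less clustered histone RNA than KO IELp, the precursors of the same genotype. Of 20 tested genes, 6 were lower and 0 were higher by edgeR, against 22.4% lower and 22.6% higher among all tested genes (45.0% in either direction). The groups did not overlap in 12 of the 20, against 56.4% of all tested genes, and the median log2 fold change was -0.58, against 0.00 over all tested genes. No gene was higher before adjustment either, and DESeq2 called 0 higher and 5 lower. DNA replication and mitosis genes fell alongside, in 24 of 25 and 20 of 20 cases. The B cell markers summed to 79.1 to 94.4 CPM in KO CD8αα splenocytes, with none of the 4 at 0, and 16.8 to 20.4 CPM in KO IELp, with Ms4a1 at 0. The 5 myeloid markers, all called higher, summed to 41.5 to 64.2 CPM in KO CD8αα splenocytes, with none at 0, and 21.1 to 23.9 CPM in KO IELp, with Adgre1 at 0. The 6 double-positive thymocyte markers summed to 5.77 to 12.3 CPM in KO CD8αα splenocytes, with Rag1 and Rag2 at 0, and 27.8 to 32.03 CPM in KO IELp, with none at 0. The part of these markers in the histone values was not tested.

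Among the tested genes, the H2B genes Hist1h2bg and Hist1h2bj had the deepest falls. Both passed the filter on counts through the KO IELp libraries, where they were high. Hist1h2ag, an H2A gene with 13 counts in splenocytes and 72 in KO IELp, was too low to be tested here. Hist1h2bg had 4, 0 and 5 counts in KO CD8αα splenocytes and 33, 30 and 32 counts in KO IELp, and fell by 3.26 on the log2 scale (SE 0.64, edgeR adjusted p = 0.00110). Hist1h2bj had 1, 4 and 0 counts in splenocytes and 13, 12 and 17 counts in KO IELp, and fell by 2.93 (SE 0.73, adjusted p = 0.00563). Hist1h2bc had 1.96, 1.22 and 1.12 CPM in splenocytes and 4.49, 4.21 and 4.96 CPM in KO IELp, and fell by 1.54 (SE 0.29, adjusted p = 7.19e-04). Hist1h2ae fell by 1.56 (SE 0.30), Hist1h4d by 1.00 (SE 0.27) and Hist1h1c by 0.61 (SE 0.23, adjusted p = 0.0425). The call of Hist1h1c was lost with DESeq2 (adjusted p = 0.0808) and without KO IELp replicate 1 or 2 or splenocyte replicate 2 or 3, where it reached 0.177. Hist2h2be did not pass, at 9.64 ± 2.66 CPM in splenocytes and 11.9 ± 1.91 CPM in KO IELp (adjusted p = 0.452).

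The change from precursor to CD8αα cell was compared between genotypes in 1 fit of all 12 libraries, as the splenocyte step in KO cells minus the IEL step in control cells, with tissue and genotype of the CD8αα cells confounded. Of 28 tested genes, 4 had a higher and 3 a lower step in KO cells by edgeR, against 24.2% higher and 22.5% lower among all tested genes (46.7% in either direction). The lower ones were Hist1h2bg, Hist1h1c and Hist1h1e and the higher ones Hist1h2ac, Hist1h4i, Hist1h2ae and Hist2h2be. Hist1h1c therefore fell slightly in the KO step, at 3.37 ± 0.526 CPM in KO CD8αα splenocytes and 5.59 ± 0.951 CPM in KO IELp, and rose strongly in the control step, and the difference of the steps was -3.14 (SE 0.27, adjusted p = 1.09e-07).

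Many H2A and H2B genes lie head to head and share the DNA between their starts. Of 13 divergent pairs with starts within 1000 bases, 4 H2A and H2B pairs had both genes tested in some comparison. In the Hist1h2ae and Hist1h2bg pair, with Hist1h2ae on the minus strand (chr13:23570517-23571220) and Hist1h2bg on the plus strand (chr13:23571396-23572013), 175 bases separate the starts. This stretch (chr13:23571221-23571395, plus strand, GRCm38.p6, from RefSeq) is shown because the genes on either side moved apart, with CCAAT and its complement ATTGG, the octamer ATTTGCAT and TATAAA in capitals.
Hist1h2ae and Hist1h2bg: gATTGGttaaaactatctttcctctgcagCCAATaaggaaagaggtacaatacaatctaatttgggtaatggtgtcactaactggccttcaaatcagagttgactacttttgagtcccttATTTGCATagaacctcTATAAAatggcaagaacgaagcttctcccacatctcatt
Between Hist2h2ac and Hist2h2be the stretch is 238 bases long (chr3:96220881-96221118, plus strand, GRCm38.p6, from RefSeq), with the same letters in capitals and TTTATA as the complement of TATAAA.
Hist2h2ac and Hist2h2be: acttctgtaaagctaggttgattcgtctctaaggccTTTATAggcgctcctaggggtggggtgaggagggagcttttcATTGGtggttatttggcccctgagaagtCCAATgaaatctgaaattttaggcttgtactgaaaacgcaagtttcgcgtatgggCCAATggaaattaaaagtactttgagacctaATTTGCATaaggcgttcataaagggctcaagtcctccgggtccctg

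The 2 pairs behaved differently across groups. Of the counts of the first pair, Hist1h2bg took 11.4%, 0% and 16.1% in KO CD8αα splenocytes and 63.2%, 66.1% and 61.3% in control CD8αα IEL. It took 28.2%, 22.4% and 33.0% in KO IELp and between 12.05% and 19.6% in control IELp, with a median of 14.0%. None of these groups overlapped within its comparison, and the balance within the pair therefore tilted to the H2B gene in IEL and to the H2A gene in the other 3 groups. In IEL against control IELp Hist1h2bg had a log2 fold change of 0.52 (SE 0.33, edgeR adjusted p = 0.193) while its neighbour Hist1h2ae fell. Hist2h2be took 84.7% to 95.7% of the counts of its pair in every library, in all 4 groups. Hist1h2bc took 54.8% to 75.0% in KO CD8αα splenocytes and 80.0% to 100% in control CD8αα IEL of its pair with Hist1h2ac, on 120 and 81 counts. The pair of Hist1h2ag and Hist1h2bj had only 18 counts in each of these groups. The shares were looked at after the values of the genes were seen, and they were not tested.

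**Figure D5:**
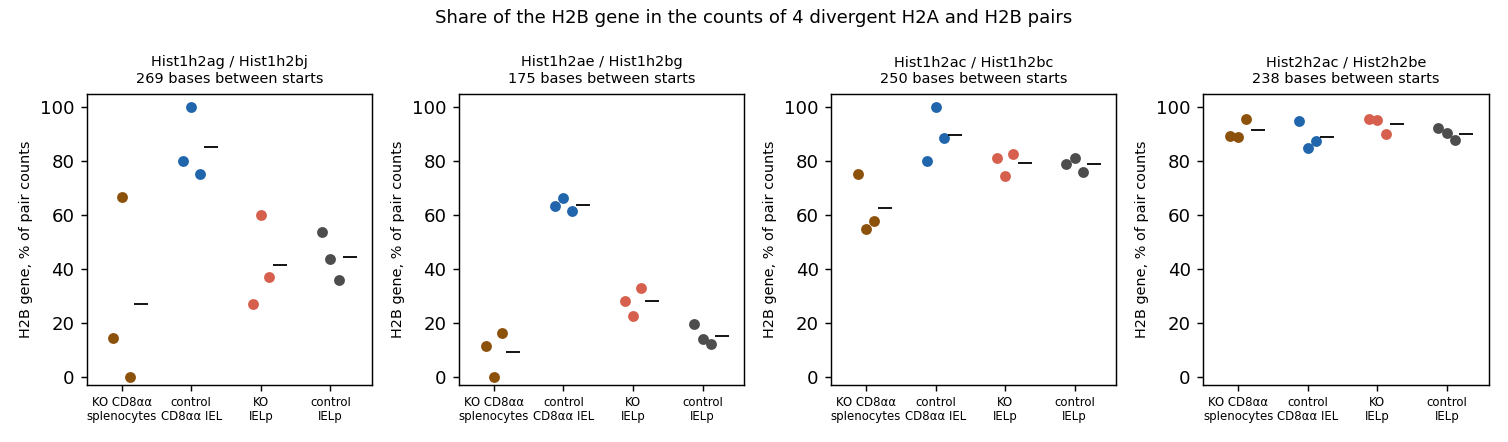
Share of the H2B gene in the raw counts, not scaled by length, of 4 divergent H2A and H2B pairs, per library (points) with the group mean (dash). Hist1h2bg took 61.3% to 66.1% of its pair in control CD8αα IEL and at most 33.0% in any library of the other groups, while Hist2h2be took at least 84.7% everywhere.

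RefSeq promoter windows of 300 bases (250 before to 50 after the start, GRCm38.p6) matched 56 of the 65 genes and were searched on both strands for 5 motifs of the histone promoter literature. The octamer ATTTGCAT, read by Oct factors in H2B promoters, lay in 11 of 56 windows, 6 of 16 H2A and 5 of 14 H2B, and in none of the H1, H3 and H4 windows, against 1.75% of 27025 promoters. CCAAT was present in 47 windows, all H1, H2A, H2B and H3 windows and 3 of 12 H4 windows, against 37.9% of all promoters. TATAAA was present in 33, against 14.2%. AAACACA, a motif of H1 promoters, lay in 4 of 5 H1 windows and 6 of 56 in all, against 7.14%, and TTTCCCGC, an E2F motif, in 1 window, against 1.11%. Hist1h1c and Hist1h1e, the most abundant H1 genes, both held AAACACA and CCAAT, and so did Hist1h1b and Hist1h1d. Hist1h4d held CCAAT and TATAAA, and Hist1h4i held TATAAA without CCAAT. A match describes the letters of the window and not a bound site.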

How the data were processed

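RNA from 12 libraries of sorted mouse T cells was made into cDNA and read as pairs of 76 bases, per the labels' protocols. The submitters' processing notes name STAR, HTSeq, Trimmomatic, bcl2fastq 2.17, DESeq2 and the mm10 build. The order of these tools, their settings, strand handling and the annotation were not given in the sources used here. The authors deposited a table of whole-number counts per gene symbol. Its summary rows of reads assigned to no gene, 58.8% to 61.0% of each library, were left out of library sizes and tests. A second deposited table, of scaled values, was not used.

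The 65 genes were found by symbol, and each gene list was chosen with earlier results of these data known. Each pair of groups was compared with edgeR 4.0.16 (R 4.3.3) and its 2-sided quasi-likelihood test on the deposited counts of its 6 libraries (filterByExpr with a count minimum of 10, TMM scaling, Benjamini-Hochberg adjustment over all tested genes, threshold 0.05). The steps were compared in 1 fit of 12 libraries. Each SE was the log2 fold change divided by the root of its F statistic. The fit was tested on simulated counts first. CPM were scaled by total gene counts, with no TMM factor. Sums of all members were given without a test. Alternatives were median-of-ratios (RLE) factors, library totals alone, DESeq2 1.42.0, no filter, a replicate block, leaving out each library, and 1 fit of all libraries. TMM scaling of the sums, and sums without 1 or 2 genes, were added after the data were seen. Without molecular identifiers in the reads, the floors account for counting error alone.

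Named genes were those past the threshold in the IELp comparison, the 3 largest and 3 smallest changes in each other one, the 10 most abundant and the 2 most abundant per class; further genes were named after their values were seen, and a part is printed. From each companion list up to 4 genes with the smallest adjusted p were eligible. Positions, exon lengths and windows came from GENCODE release M21, which held all 70 symbols, and promoters from RefSeq tables. One marker gene of the cell type lists is not reported here.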

Additional observations from a re-analysis of the deposited data

Results flagged for a closer look

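In 7 of 28 tested clustered histone genes the step from precursor to CD8αα cell differed between genotypes. The test was edgeR's quasi-likelihood test of the difference in 1 fit of all 12 libraries. It called 46.7% of all tested genes, so the clustered histone genes were not called more often than others. Each value is the log2 fold change of KO CD8αα splenocytes over KO IELp minus that of control CD8αα IEL over control IELp, and tissue and genotype of the CD8αα cells cannot be told apart in it. The difference was -3.79 (SE 0.74, adjusted p = 5.03e-04) for Hist1h2bg, -3.14 (SE 0.27, adjusted p = 1.09e-07) for Hist1h1c and -0.94 (SE 0.34, adjusted p = 0.0338) for Hist1h1e. It was 2.19 (SE 0.80, adjusted p = 0.0346) for Hist1h2ac, 1.48 (SE 0.35, adjusted p = 0.00264) for Hist1h4i, 1.20 (SE 0.40, adjusted p = 0.0211) for Hist1h2ae and 0.93 (SE 0.31, adjusted p = 0.0225) for Hist2h2be.

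Hist1h2bg, Hist1h1c and Hist1h4i were past the threshold under all 17 alternatives. The other 4 lost their call when a library was left out, Hist1h1e also with library totals alone, and Hist1h2ac also without a filter and with the replicate block. The adjusted p reached 0.100 for Hist1h1e without IEL replicate 2, with losses also without control IELp replicate 1 or 2, KO IELp replicate 1 or 2 and splenocyte replicate 1 or 2. It reached 0.0796 for Hist1h2ac without KO IELp replicate 3, and its call was kept in 2 of 12 such fits, those without IEL replicate 3 and without splenocyte replicate 1. It reached 0.0589 for Hist1h2ae without IEL replicate 1, with losses also without control IELp replicate 3 and splenocyte replicate 3, and 0.0570 for Hist2h2be without KO IELp replicate 3, with losses also without control IELp replicate 1 or 3 and splenocyte replicate 2 or 3.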

How the results depend on the processing

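Of 36 calls on clustered histone genes, 24 stayed past the threshold under every alternative that was run and 12 lost the call in at least 1; no called gene changed sign. In KO IELp against control IELp the number of lower genes was 1 with DESeq2, with the replicate number as a block and in 1 fit of all 12 libraries, in each case without Hist1h4d, and the number of higher genes was 1 (Hist2h2be) without a filter. Leaving out 1 library gave 0 to 2 lower and 0 to 1 higher genes there, 1 to 2 higher genes in control CD8αα IEL against control IELp, 1 to 3 higher genes in KO CD8αα splenocytes against control CD8αα IEL, and 1 to 4 higher genes in the difference of steps. The fit of all 12 libraries had 1 higher gene (Hist2h3b) in KO CD8αα splenocytes against KO IELp. The sum in control CD8αα IEL was 61.0 CPM with RLE and also with TMM factors, against 54.7 CPM with library totals.

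Same-numbered libraries did not deviate together (r between -0.0264 and 0.0647 across genes), so the labels' numbers were not taken as pairs. With the replicate block 13 genes were lower in control CD8αα IEL against control IELp, 2 higher and 3 lower in KO CD8αα splenocytes against control CD8αα IEL, 6 lower in KO CD8αα splenocytes against KO IELp, and 3 higher and 3 lower in the difference of steps. Depth limits these genes: 39 of 65 did not pass the count filter in any of the 4 comparisons. Without the filter, Hist1h2ah, Hist1h2bk, Hist1h3b, Hist1h3c, Hist1h3g and Hist1h3h among them were called in control CD8αα IEL against control IELp, and Hist1h2ad in KO CD8αα splenocytes against KO IELp.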
